A study of Mus musculus with 14 samples.

Results

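A set of 10 genes that astrocytes switch on or raise when they become reactive was followed through the brains of aged mice that model Alzheimer's disease: Gfap, Vim, Serpina3n, Cd44, Lcn2, S100a6, Aspg, Tspo, Fbln5 and Timp1. They were taken by symbol, and all 10 were found among the 43346 genes of the deposited table. RNA from a frozen cross-section of brain that held hippocampus and cortex was sequenced from 14 female mice, each 23 months old and of the C57BL/6;SJL-Tg strain. NTG mice (n = 4, mice 7 to 10) were wild-type, non-transgenic animals. APP/PS1 mice (n = 5, mice 16 to 20; genotype APP/PS1 +/+) carried the human mutant amyloid precursor protein and presenilin 1 transgenes. Both of these groups are labelled non-treated, and the treatment protocol gives controls a vehicle of water with 0.1% PEG. APP/PS1 + CP2 mice (n = 5, mice 21 to 25) carried the same transgenes and drank CP2, a tricyclic pyrone that partially inhibits mitochondrial complex I, at 25 mg/kg/day in the same vehicle from 9 months of age. Which promoters drive the transgenes is not given in the sources used here, and no NTG animals given CP2 were used here.

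Total counts were 70548781 to 106235625 per mouse, so 1 count was worth 0.00941 to 0.0142 CPM (counts scaled to a common library total of 1000000 with TMM factors of 0.95 to 1.03). One library stood apart in its striatal and thalamic markers. In APP/PS1 mouse 16 the 10 measured markers of striatal neurons summed to 2854 CPM, against 251 to 462 CPM in the other 13 mice, and the 7 thalamic markers summed to 164 CPM against 333 to 598 CPM. The same mouse had the lowest level of all 10 reactive genes in its group, so member values for the called genes are also given without it, and so are the counts of genes called in APP/PS1 against NTG mice in each list below where leaving it out changed them. Leaving out the lowest mouse raises the APP/PS1 mean of each member by necessity, so those member values are no separate support for a difference. Calls over all genes also rose without mouse 16, from 712 to 1094 higher and from 220 to 380 lower in APP/PS1 against NTG mice. Mouse 16 also had the lowest APP/PS1 sum of the lists of reactive, signalling, inducing and microglial genes below. Their counts without it are therefore no separate support either. The part of the striatal and thalamic markers in the gene levels was not tested. Markers of dentate gyrus and of cortical layers, the labelled regions, were detected in every group, with none at 0. The 6 dentate gyrus markers summed to 219 to 282 CPM in NTG, 150 to 212 in APP/PS1 and 193 to 211 in CP2-treated mice. By edgeR, 1 of the 6 was called lower in APP/PS1 than in NTG mice (3 without mouse 16), as were 1.34% of all genes. All 7 thalamic markers were higher in CP2-treated than in vehicle mice, 0 of them called. At an unadjusted p under 0.05 by edgeR 4 were higher (5 without mouse 16), as were 2.88% of all genes. Choroid plexus markers varied widely within groups. The 6 of them summed to 26.4 to 963 CPM in NTG, 27.8 to 1360 in APP/PS1 and 192 to 755 in CP2-treated mice. Of these markers 0 were called by edgeR in any comparison. The part of the dentate gyrus, thalamic and choroid plexus markers was not tested either.

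Astrocytes respond to injury and to amyloid plaques by enlarging their cytoskeleton and secreting protease inhibitors, matrix proteins and acute-phase proteins. Much of this program runs through cytokine receptors that share the gp130 subunit and through the transcription factor STAT3. Several of the 10 genes are not private to astrocytes: microglia, endothelial cells, pericytes and meningeal fibroblasts can also make Vim, Cd44, S100a6, Tspo and Timp1, and neutrophils carry Lcn2. In bulk tissue, more cells of a type and more RNA per cell cannot be told apart.

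The promoter windows of 9 of the 10 genes were found among 32851 RefSeq promoters of build GRCm38.p6 and were searched on both strands for 3 short motifs: TTCNNNGAA, the spaced palindrome that STAT factors bind, TGANTCA, the core of the AP-1 site, and TATAAA, the TATA box. The 4 windows below belong, of the 8 members tested, to 4 of the 5 with the largest differences between APP/PS1 and NTG mice, and are shown so that the sequence next to the start of each can be read beside its values. Each runs 5′ to 3′ on the strand of the gene, from 250 bases before the RefSeq start to 20 bases after it, and capitals mark a motif match.
Gfap (chr11:102897181-102897450, minus strand): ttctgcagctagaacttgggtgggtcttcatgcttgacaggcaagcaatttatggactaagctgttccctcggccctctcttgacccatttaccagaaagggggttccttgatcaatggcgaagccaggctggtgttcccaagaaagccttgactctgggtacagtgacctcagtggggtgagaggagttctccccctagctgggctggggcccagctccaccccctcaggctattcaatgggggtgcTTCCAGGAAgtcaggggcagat
Serpina3n (chr12:104406458-104406727, plus strand): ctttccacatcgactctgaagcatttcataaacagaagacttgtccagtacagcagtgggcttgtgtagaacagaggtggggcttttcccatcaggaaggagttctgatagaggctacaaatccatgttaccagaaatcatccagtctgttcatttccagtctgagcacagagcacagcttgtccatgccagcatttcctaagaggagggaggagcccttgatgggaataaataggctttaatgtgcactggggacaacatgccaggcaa
S100a6 (chr3:90612644-90612913, plus strand): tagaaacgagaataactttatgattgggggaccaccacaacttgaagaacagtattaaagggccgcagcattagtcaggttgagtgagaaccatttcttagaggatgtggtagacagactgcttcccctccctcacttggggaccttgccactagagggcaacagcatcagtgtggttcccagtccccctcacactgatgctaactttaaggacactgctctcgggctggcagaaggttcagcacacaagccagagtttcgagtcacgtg
Aspg (chr12:112106433-112106702, plus strand): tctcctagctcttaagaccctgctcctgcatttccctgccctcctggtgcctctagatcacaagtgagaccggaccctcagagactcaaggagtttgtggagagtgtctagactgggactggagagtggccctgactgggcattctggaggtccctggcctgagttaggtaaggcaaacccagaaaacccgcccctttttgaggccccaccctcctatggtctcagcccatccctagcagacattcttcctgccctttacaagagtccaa

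Gfap held the only STAT-type match, TTCCAGGAA, which began at position -2 from the RefSeq start. That motif was present in 8.3% of all windows of the same 300-base length. The Gfap window lies wholly inside the annotated span of the gene, and 0 of its 250 bases before the RefSeq start are in an exon. The fifth gene, Vim, held TATAAA from position -32, a motif present in 13.6% of all windows; its window lies inside an exon of another Vim transcript and is not printed. TGANTCA was in none of the members' windows and in 7.81% of all windows. A match of letters is not evidence of binding, and its absence from so short a window says nothing about the factor.

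Per base of transcript, Gfap was by far the most abundant of the 10 genes. Its mean level in NTG mice was 72.2 ± 16.8 RPKM (SD, n = 4), and it was followed by Serpina3n at 11.9 ± 3.95 RPKM and S100a6 at 10.8 ± 1.57 RPKM. Vim was at 5.43 ± 1.12 RPKM and Tspo at 4.30 ± 0.826 RPKM. Aspg, Fbln5, Cd44 and Timp1 lay between 0.715 and 1.45 RPKM, and Lcn2 was lowest at 0.131 ± 0.134 RPKM. Serpina3n and S100a6, Aspg and Fbln5, and Cd44 and Timp1 were neighbours in this order that differed by less than the larger SD of the pair. In APP/PS1 mice the same 6 genes led in the same order, from Gfap at 370 ± 110 RPKM down to Aspg at 5.19 ± 1.82 RPKM, but Fbln5, at 1.98 ± 0.650 RPKM, now stood below Cd44 and level with Timp1. Lcn2 stayed last at 0.535 ± 0.289 RPKM.

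The first comparison asks how far the reactive program is raised in untreated disease-model brains. Of the 8 members abundant enough to be tested, 7 were called higher in APP/PS1 than in NTG mice (edgeR quasi-likelihood test, Benjamini-Hochberg adjusted p under 0.05 over 16417 genes), against 4.34% of all genes tested that were called higher. The median log2 fold change of the 8 was 1.78, and that of all genes was -0.00421. Of all genes tested, 1.34% were called lower. At an unadjusted p under 0.05 by edgeR, 10.6% of all genes were higher and 8.05% lower. All 8 were above 1 CPM in every mouse of all groups, so none was tested only because it was high in the transgenic animals. For 6 of them (Gfap, Vim, Serpina3n, S100a6, Aspg and Tspo) every APP/PS1 mouse was above every NTG mouse, a separation seen upward in 6.15% of all genes tested. Cd44 and Fbln5 overlapped between the groups. Lcn2 and Timp1 missed the abundance filter, each because of 1 APP/PS1 mouse, mouse 16.

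**Figure D1:**
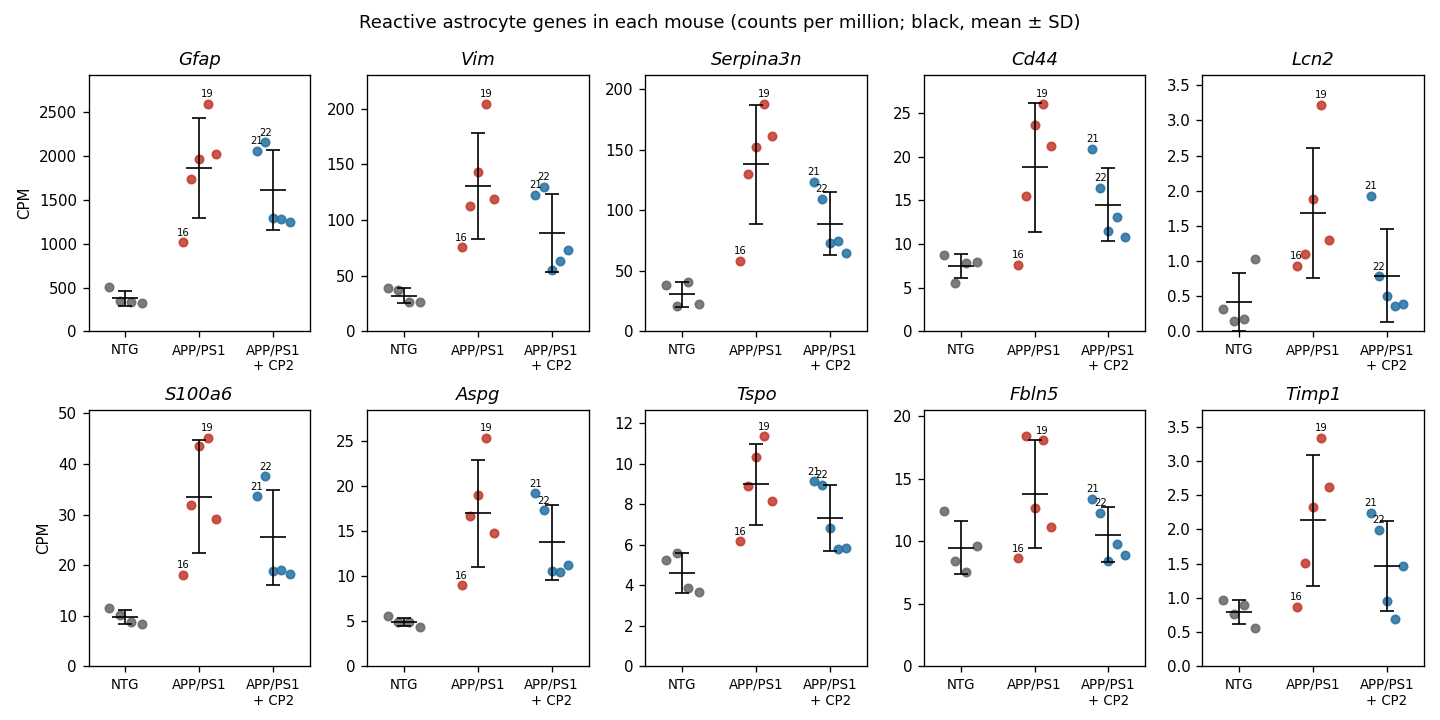
Each panel plots the level of 1 gene in CPM (linear axis from 0) in every NTG, APP/PS1 and CP2-treated APP/PS1 mouse; points are mice, black bars the mean ± SD, and mice 16, 19, 21 and 22 are numbered. Mouse 16 is the lowest APP/PS1 animal in all 10 panels, mouse 19 the highest in 9, and the highest CP2-treated animal is always mouse 21 or 22.

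Gfap (ENSMUSG00000020932, mm10 chr11:102887336-102900912) encodes glial fibrillary acidic protein, the intermediate filament that defines the reactive astrocyte. Its level was 508, 348, 338 and 326 CPM in NTG mice 7 to 10, and 1018, 1745, 1963, 2598 and 2024 CPM in APP/PS1 mice 16 to 20. The lowest APP/PS1 mouse was therefore well above the highest NTG mouse. The log2 fold change was 2.30 (SE 0.25, adjusted p = 0.000649), which is 4.92-fold (95% interval 3.32 to 7.28). Without mouse 16 it was 2.45 (edgeR, adjusted p = 3.01e-05). These values rest on 23334 to 213140 counts per mouse. A long non-coding RNA, Gm26668, spans the gene on the opposite strand without sharing an exon base and had 475 to 840 counts.

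Vim (ENSMUSG00000026728, chr2:13573927-13582826) encodes vimentin, the filament that co-assembles with Gfap protein in reactive cells. It measured 39.3, 37.1, 26.1 and 26.5 CPM in NTG mice 7 to 10 and 75.5, 112.7, 143.0, 204.5 and 118.8 CPM in APP/PS1 mice 16 to 20. No mouse of either group crossed into the range of the other, and Vim differed by 2.02 on the log2 scale (SE 0.27, adjusted p = 0.00161), and by 2.17 without mouse 16 (edgeR, adjusted p = 0.000152). The 3 other filament genes examined were not called, and 1, Nes, had an unadjusted p under 0.05: nestin (Nes) differed by 0.46 (SE 0.21, adjusted p = 0.263 by edgeR), synemin (Synm) by 0.19 and the cross-linker plectin (Plec) by 0.09 on the log2 scale. Without mouse 16, Synm was called (0.26, adjusted p = 0.0488 by edgeR). The coding sequences of Gfap and Vim are 67.5% identical over 1280 aligned bases.

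Of the secreted members, Serpina3n (ENSMUSG00000021091, chr12:104406729-104414329), an inhibitor of serine proteases, differed most. Its NTG values were 38.3, 20.7, 40.5 and 22.9 CPM, and its APP/PS1 values were 58.0, 130.2, 152.2, 187.7 and 161.3 CPM in mice 16 to 20. Mouse 16 came closest to the NTG range and the other 4 APP/PS1 mice were at least 3 times as high as any NTG mouse. The log2 fold change was 2.17 (SE 0.34, adjusted p = 0.00408), and 2.37 without mouse 16 (edgeR, adjusted p = 0.000137). Serpina3n lies in a cluster of related genes, of which 9 had a coding sequence to align, and the closest, Serpina3c, was 86.0% identical to it. None of the 10 listed cluster members passed the abundance filter in any comparison, and their mean levels in APP/PS1 mice did not exceed 0.79 RPKM against 55.7 RPKM for Serpina3n.

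Lcn2 (ENSMUSG00000026822, chr2:32384633-32388252) encodes lipocalin-2, a secreted carrier of iron-binding siderophores. Its NTG values were 0.318, 0.149, 0.176 and 1.03 CPM in mice 7 to 10, and its APP/PS1 values were 0.929, 1.10, 1.88, 3.22 and 1.301 CPM in mice 16 to 20. The groups overlapped through NTG mouse 10 and APP/PS1 mouse 16 alone. With no abundance filter the log2 fold change was 1.95 (SE 0.55, adjusted p = 0.101 by edgeR), not past the threshold. Without mouse 16, again with no filter, it was 2.11 (SE 0.52, adjusted p = 0.0367 by edgeR). NTG mouse 10 also had the highest summed level of 6 neutrophil markers, 9.60 CPM against 0.421 to 2.45 CPM in all other mice. The counts were few, 10 to 255 per mouse. The surface receptor of lipocalin-2 in brain, Slc22a17, was not called (log2 fold change -0.09, SE 0.07).

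Timp1 (ENSMUSG00000001131, chrX:20870166-20874735) encodes a secreted inhibitor of metalloproteinases. It was at 0.966, 0.761, 0.891 and 0.565 CPM in NTG mice 7 to 10 and at 0.871, 1.504, 2.33, 3.33 and 2.61 CPM in APP/PS1 mice 16 to 20. Mouse 16 lay within the NTG range and the other 4 APP/PS1 mice above it. With no abundance filter the log2 fold change was 1.41 (SE 0.33, adjusted p = 0.0437 by edgeR), and without mouse 16, again with no filter, it was 1.62 (SE 0.24, adjusted p = 0.00109). Timp1 sits wholly within the span of Syn1, the neuronal synapsin I gene, on the opposite strand; the genes share no exon base, but Syn1 had 28205 to 49315 counts against 51 to 264 for Timp1, and counting is not stated to use strand. None of the 8 tested relatives and metalloproteinases was called by edgeR; at an unadjusted p under 0.05, Cd63 and Mmp2 were higher and Timp4 and Mmp14 lower. Among them were Timp2 (log2 fold change 0.10, SE 0.11) and Cd63, a surface partner of Timp1 protein (0.68, SE 0.18, adjusted p = 0.0614 by edgeR). Without mouse 16, 2 of the 8 were called higher, Cd63 (0.81, adjusted p = 0.000905 by edgeR) and Mmp2 (0.71, adjusted p = 0.0259).

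Fbln5 (ENSMUSG00000021186, chr12:101746565-101819055), which encodes fibulin-5, a protein that organises elastic fibres, was the one tested member not called. It ranged from 7.58 to 12.4 CPM in NTG mice and from 8.65 to 18.5 CPM in APP/PS1 mice, and the ranges overlapped. The log2 fold change was 0.54 (SE 0.24, 95% interval 0.01 to 1.06, adjusted p = 0.253 by edgeR), and 0.66 without mouse 16 (adjusted p = 0.0685). None of the 8 relatives and elastic-fibre partners tested was called by edgeR, and 1, Efemp2, had an unadjusted p under 0.05. Efemp2 was called without mouse 16 (log2 fold change 0.47, adjusted p = 0.0198 by edgeR).

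Cd44 (ENSMUSG00000005087, chr2:102811141-102901665) encodes the cell-surface receptor for hyaluronan. It was at 8.73, 5.49, 7.80 and 7.90 CPM in NTG mice 7 to 10 and at 7.64, 15.5, 23.6, 26.1 and 21.2 CPM in APP/PS1 mice 16 to 20. Mouse 16 was inside the NTG range, and the other 4 APP/PS1 mice were above it. Cd44 differed by 1.33 on the log2 scale (SE 0.31, adjusted p = 0.0359). The call was lost when any 1 of the 8 mice other than mouse 16 was left out, with adjusted p from 0.0516 without APP/PS1 mouse 17 to 0.105 without NTG mouse 8, whereas without mouse 16 the change was 1.53 (edgeR, adjusted p = 0.000437). Of 7 tested ligands and partners of Cd44 protein, 1 was called higher, moesin (Msn), which ties Cd44 to actin (log2 fold change 1.05, SE 0.15, adjusted p = 0.00212 by edgeR).

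S100a6 (ENSMUSG00000001025, chr3:90612894-90614414) encodes calcyclin, a small calcium-binding protein. It was at 11.6, 10.1, 8.83 and 8.42 CPM in NTG mice 7 to 10 and at 18.1, 31.8, 43.5, 45.2 and 29.1 CPM in APP/PS1 mice 16 to 20, with no overlap, and differed by 1.78 on the log2 scale (SE 0.25, adjusted p = 0.00211). Without mouse 16 the difference was 1.94 (edgeR, adjusted p = 7.15e-05). Of 9 tested relatives and partners 1 was called, S100a4, another calcium-binding S100 protein (1.67, SE 0.29, adjusted p = 0.00815 by edgeR). Without mouse 16, S100a11, also an S100 protein (0.91, adjusted p = 0.0247 by edgeR), and Anxa2, annexin A2 (0.82, adjusted p = 0.0116), were called as well. S100b, which astrocytes make at rest, differed by 0.12 (SE 0.21).

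Aspg (ENSMUSG00000037686, chr12:112106683-112127573) encodes an asparaginase, an enzyme that hydrolyses asparagine. It ranged from 4.39 to 5.52 CPM in NTG mice, the tightest range of the 10 genes (coefficient of variation 9.35%), and from 8.97 to 25.3 CPM in APP/PS1 mice. On the log2 scale this was a difference of 1.78 (SE 0.25, adjusted p = 0.00235), and of 1.94 without mouse 16 (edgeR, adjusted p = 7.15e-05).

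Tspo (ENSMUSG00000041736, chr15:83563573-83574201) encodes the translocator protein of the outer mitochondrial membrane, the target of tracers used to image glial activation. It was at 5.25, 5.61, 3.88 and 3.68 CPM in NTG mice 7 to 10 and at 6.17, 8.92, 10.3, 11.3 and 8.16 CPM in APP/PS1 mice 16 to 20. The groups did not overlap, although mouse 16 was close to the NTG range. The log2 fold change was 0.97 (SE 0.19, adjusted p = 0.0162), the smallest of the 7 called, and the call was lost without NTG mouse 9 (0.89, adjusted p = 0.0631 by edgeR). Without mouse 16 it was 1.07 (edgeR, adjusted p = 0.00215). None of its 5 partners was called by edgeR, and at an unadjusted p under 0.05 Dbi was higher and Cyp11a1 lower; Vdac1, the mitochondrial porin, differed by -0.03 (SE 0.05) and Dbi, whose product is a ligand of the Tspo protein, by 0.67 (SE 0.19, adjusted p = 0.0738 by edgeR). Dbi was called without mouse 16 (0.79, adjusted p = 0.00609 by edgeR). Tspo shares 53 exon bases with Mcat on the opposite strand, which had 1225 to 1934 counts against 309 to 1122 for Tspo.

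The second comparison asks whether CP2 lowered these genes in APP/PS1 mice. All 8 tested members had a negative log2 fold change in CP2-treated against vehicle APP/PS1 mice, from -0.22 for Gfap to -0.63 for Serpina3n, as did 52.5% of all 16407 genes tested. None was called: with edgeR, 0 members had an adjusted p under 0.05, where 0.00609% of all genes (1 gene) were called lower, and 1 member, Serpina3n, had an unadjusted p under 0.05, where 3.66% of all genes did so in that direction. DESeq2 and limma with quality weights also called 0 members. The median log2 fold change of the 8 was -0.38 and that of all genes -0.00596. The CP2-treated and vehicle ranges overlapped for all 10 genes.

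**Figure D2:**
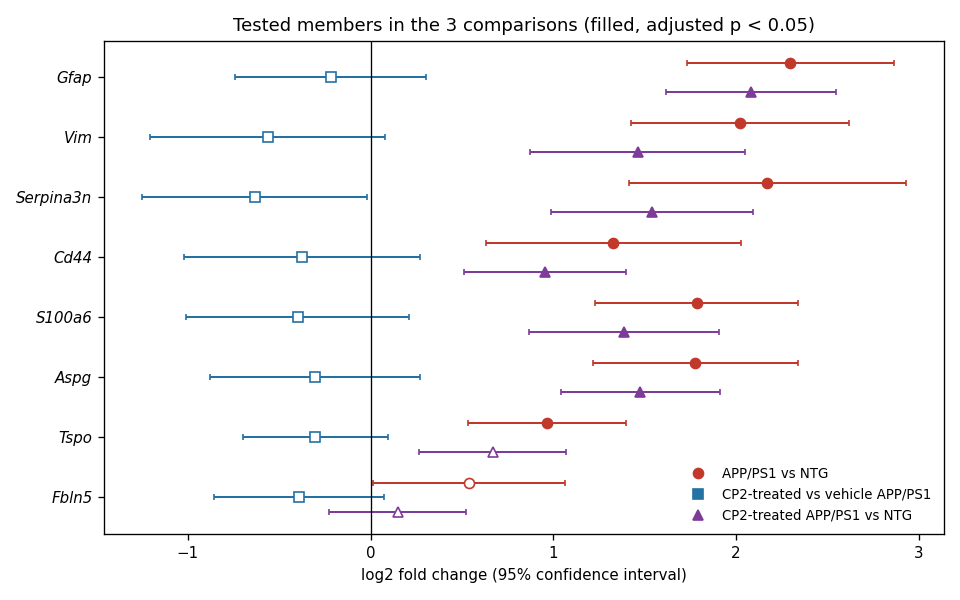
The horizontal axis gives the log2 fold change with its 95% confidence interval for each of the 8 tested members in the 3 comparisons; filled symbols had an adjusted p under 0.05. The intervals for APP/PS1 against NTG (circles) lie right of 0 and 7 symbols are filled. For CP2-treated against vehicle APP/PS1 mice (squares) all symbols lie left of 0 and none is filled, but only the interval of Serpina3n excludes 0. The set for CP2-treated APP/PS1 against NTG (triangles) includes 6 filled symbols.

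Serpina3n had the largest fitted difference of the tested members. CP2-treated mice 21 to 25 were at 123.5, 109.5, 72.8, 74.4 and 64.8 CPM, all of them below the 4 vehicle mice 17 to 20 and above mouse 16. The log2 fold change was -0.63 (SE 0.28, 95% interval -1.25 to -0.02, unadjusted p = 0.0447, adjusted p = 0.744 by edgeR). Gfap was at 2065, 2159, 1294, 1287 and 1253 CPM, which interleaved with the vehicle mice. Its log2 fold change was -0.22 with a 95% interval of -0.74 to 0.31, so a decrease to 0.599 of the vehicle level and an increase to 1.24 times that level both lie within the interval.

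Vim was at 122.8, 130.0, 54.9, 63.4 and 73.0 CPM in CP2-treated mice 21 to 25 (log2 fold change -0.56, 95% interval -1.21 to 0.08). Cd44 was at 20.9, 16.4, 11.5, 13.1 and 10.8 CPM (-0.37, 95% interval -1.02 to 0.27). S100a6 was at 33.6, 37.6, 18.8, 19.1 and 18.2 CPM (-0.40, 95% interval -1.01 to 0.21). In each of these genes mice 21 and 22 lay within the range of vehicle mice 17 to 20, and mice 23, 24 and 25 lay below it. Aspg (-0.30, 95% interval -0.88 to 0.27), Tspo (-0.30, 95% interval -0.70 to 0.10) and Fbln5 (-0.39, 95% interval -0.86 to 0.07) had intervals that also included 0.

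Lcn2 was at 1.93, 0.784, 0.506, 0.359 and 0.384 CPM in CP2-treated mice 21 to 25. Mouse 21 was above all but 1 of the vehicle mice, and the other 4 were below every vehicle mouse. With no abundance filter the log2 fold change was -1.09 (SE 0.46, unadjusted p = 0.0354, adjusted p = 0.778 by edgeR). Timp1 was at 2.244, 1.99, 0.947, 0.690 and 1.46 CPM, with a log2 fold change of -0.54 (SE 0.36, adjusted p = 0.778 by edgeR). Lcn2 and Timp1 pass the abundance filter only through the vehicle group, and then only without mouse 16, so both are given here from fits with no filter. Vehicle mouse 16 was the lowest of its group for all 10 genes, so leaving it out necessarily made every difference larger. The values without it are therefore no separate support for a decrease. Serpina3n was then -0.83 (unadjusted p = 0.000959, adjusted p = 0.245 by edgeR), Gfap -0.37 and, with no filter, Lcn2 -1.24 (unadjusted p = 0.0158, adjusted p = 0.654 by edgeR) and Timp1 -0.74 (unadjusted p = 0.0296, adjusted p = 0.688 by edgeR). Of the 8 members tested with all mice, 6 then had an unadjusted p under 0.05 in the edgeR fit with the filter, and Gfap and Aspg did not. In that fit 5.29% of all genes had an unadjusted p under 0.05 in that direction. In the edgeR fit with neither the filter nor mouse 16, all 10 members did, as did 4.1% of all genes. Still no member had an adjusted p under 0.05 in either fit. Leaving out vehicle mouse 19 instead brought Gfap to -0.07.

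The third comparison sets CP2-treated APP/PS1 mice against the same NTG mice as the first. Of 8 tested members 6 were called higher by edgeR, against 4.56% of all 16416 genes. Gfap was 4.24-fold higher (log2 fold change 2.08, SE 0.21, adjusted p = 0.000365), Serpina3n 2.91-fold (1.54, SE 0.25, adjusted p = 0.00434) and Aspg 2.78-fold (1.48, SE 0.20, adjusted p = 0.00147). Vim was 2.76-fold higher (adjusted p = 0.00896), S100a6 2.62-fold (adjusted p = 0.00580) and Cd44 1.94-fold (adjusted p = 0.0186). The Cd44 call was lost without NTG mouse 8 (adjusted p = 0.0534 by edgeR), without NTG mouse 9 (0.0514) and when all 3 groups were fitted together (0.0963). Tspo was 1.59-fold higher (log2 fold change 0.67, SE 0.18) with an adjusted p of 0.0584, which fell to 0.00652 with DESeq2 and 0.0396 with limma. Fbln5 differed by 0.15 (SE 0.17). The 6 genes called and Tspo did not overlap between the groups, a separation seen upward in 6.43% of all genes. The median log2 fold change of the 8 was 1.43, beside -0.00154 for all genes. With no abundance filter Lcn2 differed by 0.87 (SE 0.59) and Timp1 by 0.87 (SE 0.31), neither past the threshold.

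Within each group the same few mice held the highest or lowest values of most of the genes. Mouse 16 was the lowest of the APP/PS1 group for all 10 and mouse 19 the highest for 9, the exception being Fbln5, which was highest in mouse 17. In the CP2-treated group mouse 21 was highest for 7 genes and mouse 22 for 3, and the lowest value always came from mouse 23, 24 or 25. In NTG mice, mouse 7 was highest for 7 of the 10. The spread was widest for Lcn2, whose coefficient of variation was 99.3% in NTG, 55.1% in APP/PS1 and 83.0% in CP2-treated mice. For Gfap it was 22.6%, 30.5% and 28.4%. Expressed as standardised log2 CPM over the 14 mice, the closest pair was S100a6 and Aspg, with a root mean square difference of 0.154. The distance between profiles is a description over mice that also share their group differences.

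**Figure D3:**
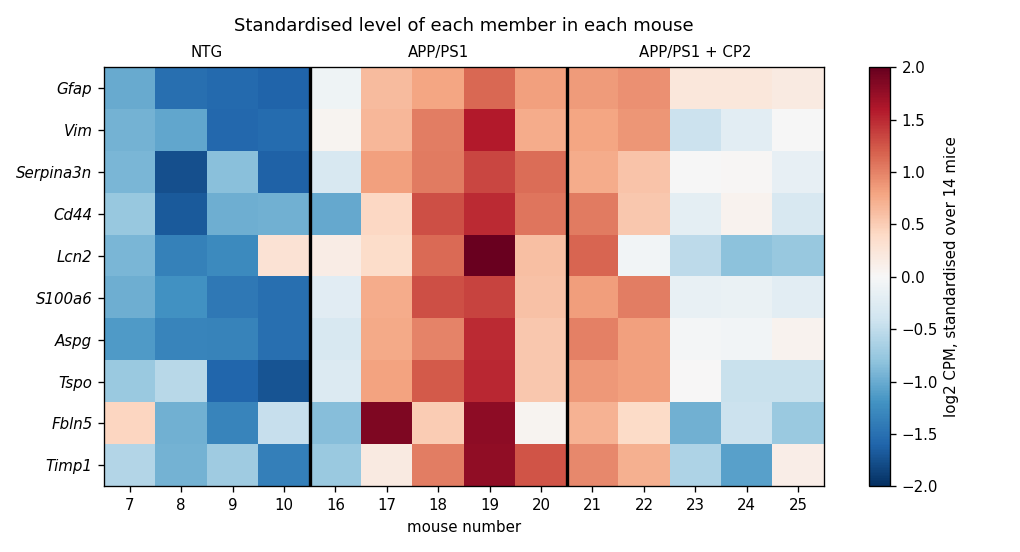
Each cell gives the log2 CPM of 1 gene (rows) in 1 mouse (columns), standardised over the 14 mice; blue is below and red above the mean of that gene, and black lines separate the 3 groups. NTG columns are mainly blue; mouse 16 is pale or blue, mouse 19 is red throughout, and among CP2-treated mice columns 21 and 22 are mainly red and columns 23 to 25 pale or blue.

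The genes with profiles most like the mean of the 10 members, over the same 14 mice, were Msn (root mean square difference 0.172), Npc2 (0.184), Mvp (0.192), Mfng (0.192) and Tnfrsf1a (0.202). Those most like Gfap alone were Ptprc (0.109), Lair1 (0.146) and Capg (0.147). Nearest to Serpina3n were Gpr65 (0.220), Unc93b1 (0.221) and Lgmn (0.231).

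Most markers that astrocytes express at rest were not called beside the reactive genes. Of 19 such genes tested, 0 were called higher and 3 lower in APP/PS1 than in NTG mice: Gpc5, a glypican (log2 fold change -0.83, SE 0.09, adjusted p = 0.000512), Fgfr3, a growth factor receptor (-0.46, SE 0.04, adjusted p = 0.000294), and Slc1a2, the main glutamate transporter (-0.41, SE 0.10, adjusted p = 0.0442 by edgeR). At an unadjusted p under 0.05, 0 were higher and 9 lower. Of all genes tested by edgeR, 1.34% were called lower and 8.05% were lower at an unadjusted p under 0.05. Without mouse 16, 1 was called higher, Aqp4, the water channel of astrocyte endfeet (0.70, adjusted p = 0.0170 by edgeR), and 4 lower, with Glul, glutamine synthetase, added (-0.43, adjusted p = 0.0259). In CP2-treated APP/PS1 against NTG mice 1 was called higher, again Aqp4 (0.50, SE 0.12, adjusted p = 0.0289 by edgeR), and 5 lower, where 1.46% of all genes were called lower. Their summed level was 9310 to 9767 CPM in NTG, 7805 to 8949 CPM in APP/PS1 and 8167 to 8799 CPM in CP2-treated mice. Per 1000 counts of these markers, Gfap was at 39.8 ± 9.91 in NTG, 225 ± 58.8 in APP/PS1 and 190 ± 50.5 in CP2-treated mice (SD, n = 4, 5 and 5). Serpina3n was at 3.21 ± 1.13, 16.6 ± 5.37 and 10.5 ± 2.79. Scaling all genes to these markers gave a log2 fold change of 2.498 for Gfap in APP/PS1 against NTG, with the median of all genes moved to 0.218, and 6417 genes called higher and 85 lower in place of 712 and 220. Fbln5 was called only under this scaling (0.75, adjusted p = 0.0260 by edgeR). CP2-treated and vehicle mice still showed no called member.

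Microglial markers moved with the reactive genes. Of 12 tested, 10 were called higher in APP/PS1 than in NTG mice and 0 lower (11 higher without mouse 16), and their summed level was 422 to 446 CPM in NTG, 768 to 990 CPM in APP/PS1 and 641 to 930 CPM in CP2-treated mice. Mice 21 and 22 had 923 and 930 CPM, and mice 23 to 25 had 723, 644 and 641 CPM. None of the 6 neutrophil markers was abundant enough to test. Of 9 meningeal fibroblast markers, 0 were called in any comparison, and at an unadjusted p under 0.05 the count was 0 in APP/PS1 against NTG mice, 0 in CP2-treated against vehicle mice and 1 in CP2-treated APP/PS1 against NTG mice. Without mouse 16 the first of these counts was 2, with 0 called by edgeR. Of 10 endothelial markers, 1 was called higher in APP/PS1 than in NTG mice by edgeR (3 without mouse 16), and 5 were higher at an unadjusted p under 0.05. In CP2-treated APP/PS1 against NTG mice 4 were called higher, and in CP2-treated against vehicle mice 0 were called. Their summed level was 280 to 301 CPM in NTG, 307 to 405 CPM in APP/PS1 and 315 to 367 CPM in CP2-treated mice. The part of any of these cell types in the reactive gene levels was not tested.

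**Figure D4:**
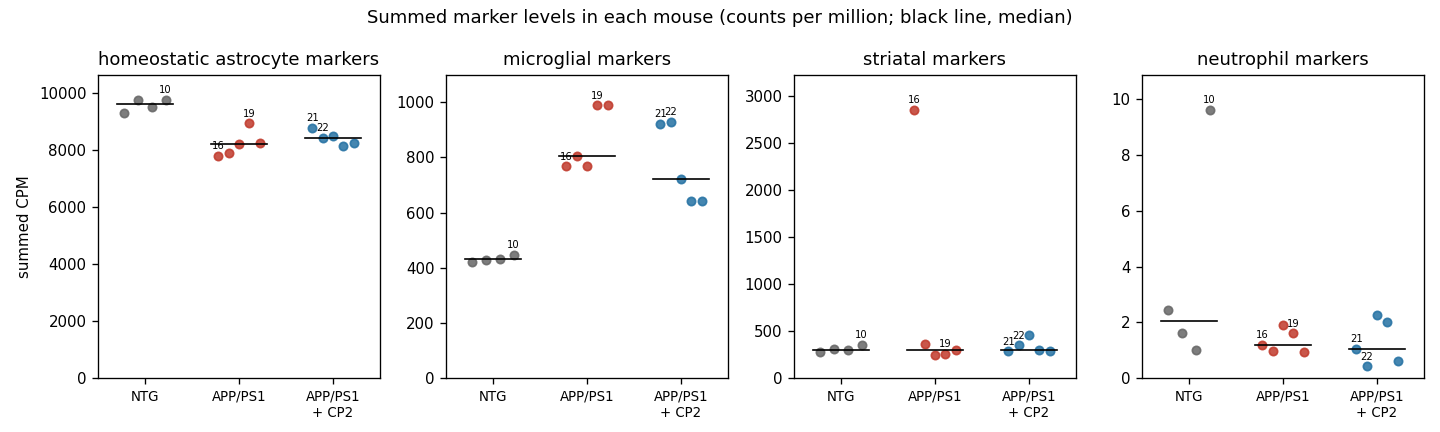
Panels give the summed CPM of markers of resting astrocytes, microglia, striatal neurons and neutrophils in each mouse, on linear axes from 0; points are mice, black lines the group median, and mice 10, 16, 19, 21 and 22 are numbered. Astrocyte sums are lower and microglial sums higher in both transgenic groups than in NTG, mouse 16 stands alone at 2854 CPM for striatum, and NTG mouse 10 at 9.60 CPM for neutrophil markers.

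Other genes of the reactive program were examined from lists of genes known for it. Of 5 further tested genes described in reactive astrocytes of several injuries, 4 were called higher in APP/PS1 than in NTG mice. Osmr, the oncostatin M receptor that pairs with gp130, went from a mean of 4.27 to 30.0 CPM (log2 fold change 2.81, SE 0.18, adjusted p = 8.12e-05 by edgeR), more than any of the 10 members. Cxcl10, a chemokine, differed by 3.41 (SE 0.45, adjusted p = 0.00155), S1pr3, a sphingosine-1-phosphate receptor, by 1.53 (SE 0.31, adjusted p = 0.0181) and Cp, ceruloplasmin, by 0.69 (SE 0.16, adjusted p = 0.0359). In CP2-treated against vehicle mice all 5 were negative and 0 were called; Osmr differed by -0.52 (SE 0.22, unadjusted p = 0.0384, adjusted p = 0.744 by edgeR). Without mouse 16, 4 were lower at an unadjusted p under 0.05 by edgeR in that comparison, as were 5.29% of all genes, and 0 were called.

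Of 10 genes first described in astrocytes after endotoxin, often named A1-type, 6 were called higher in APP/PS1 mice, as were 4.34% of all genes. Those with the smallest p were Psmb8, an immunoproteasome subunit (log2 fold change 1.64, SE 0.18), Ggta1, a galactosyltransferase (1.98, SE 0.23), Srgn, serglycin (1.19, SE 0.17), and Serping1, the C1 inhibitor (1.43, SE 0.27). Of 8 tested genes described after ischemia, often named A2-type, 3 were called higher: Cd14, a co-receptor for endotoxin (1.86, SE 0.24), Clcf1, a cytokine of the gp130 family (1.03, SE 0.14), and Cd109 (1.43, SE 0.26). Without mouse 16 the counts were 7 and 4, the added A2-type gene being Emp1, a membrane protein (1.17, adjusted p = 0.00807 by edgeR). Which cells held the RNA of these genes was not tested, and 10 of 12 microglial markers were called higher in the same comparison. In CP2-treated against vehicle mice edgeR called 0 genes of either list; at an unadjusted p under 0.05, 3 A1-type genes were lower, Iigp1, Psmb8 and Fkbp5, and 0 A2-type genes. Of all genes, 3.66% were lower at that threshold. Without mouse 16 the A1-type and A2-type counts were 4 and 3, beside 5.29% of all genes, and still 0 were called.

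Among 12 tested genes of gp130 and STAT3 signalling, 4 were called higher and 1 lower in APP/PS1 mice. Besides Osmr these were Stat3 itself (log2 fold change 0.71, SE 0.09, adjusted p = 0.00120), its feedback inhibitor Socs3 (1.12, SE 0.19, adjusted p = 0.00672) and the ligand gene Lif (1.36, SE 0.28, adjusted p = 0.0175); Cntfr, the receptor for ciliary neurotrophic factor, was lower (-0.22, SE 0.05, adjusted p = 0.0289 by edgeR). Il6st, which encodes gp130, was not called (0.33, SE 0.11, adjusted p = 0.140 by edgeR). Without mouse 16, 6 of the 12 were called higher and 1 lower, with Il6st (0.41, adjusted p = 0.00884 by edgeR) and the interleukin-6 receptor gene Il6ra (0.49, adjusted p = 0.0211) added. Genes of the microglial factors Il1a and C1q, which can induce reactive astrocytes in culture, were all called higher: C1qa by 1.74 (SE 0.18), C1qb by 1.499 (SE 0.21), C1qc by 1.49 (SE 0.20) and Il1a by 1.10 (SE 0.18). Tnf, the remaining gene of that list, was not abundant enough to be tested. In CP2-treated against vehicle mice 0 of these signalling and inducing genes were called by edgeR; at an unadjusted p under 0.05, 1 in each list was lower, Osmr and C1qa (-0.46, SE 0.18, unadjusted p = 0.0269, adjusted p = 0.744). Of all genes, 3.66% were lower at that threshold. Without mouse 16 the signalling and inducing counts were 2 and 3, beside 5.29% of all genes, with 0 called.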

How the data were processed

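RNA was sequenced from brain sections of 14 mice in 3 groups. Per the study's methods, the authors aligned paired-end reads to mm10 with TopHat and counted them per Ensembl gene with featureCounts, with reads that overlap several genes counted for each; the submitters' processing notes also name bcl2fastq and Subread. The deposited table holds raw read counts and RPKM values per gene and mouse; the RPKM values, scaled by the authors to gene length and to a library total larger than the sum of the gene counts, were used only to compare genes. Strand use in counting, and the handling of reads that map to several places, are not given in the sources used here.

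Counts were tested with edgeR 4.0.16 (R 4.3.3; TMM, quasi-likelihood test) in a separate fit for each of 3 comparisons over genes that the study's filter keeps, those above 1 CPM in all animals of either group. Benjamini-Hochberg adjusted p-values run over all genes tested, and a call is an adjusted p under 0.05. DESeq2 1.42.0, limma 3.58.1 with quality weights, RLE factors, no filter, a minimum of 10 counts in all animals, a joint fit of the 3 groups, scaling to resting astrocyte markers and leaving out each mouse were the alternatives, and omitting mouse 16 with no filter was added after seeing the data. Lcn2 and Timp1, which fail the filter, are given from the fit with no filter. On simulated counts for APP/PS1 against NTG, over 16235 genes, the procedure called 98.99% of the changed genes with 4.854% of its calls false. Only large changes were simulated. All were larger than the differences of Cd44, Tspo and Fbln5 between APP/PS1 and NTG mice. They were also larger than every member difference between CP2-treated and vehicle mice. The share called therefore does not apply to differences of those sizes. Each gene was drawn independently of the others. The share of false calls therefore does not cover sets of genes that shift together in 1 mouse, as the striatal markers did in mouse 16. Intervals cover the spread between mice; all mice are separate animals, and no libraries were near duplicates.

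The members and gene lists were chosen with earlier results of these data known. All 10 members are named; of each list, at most the 4 called genes with the smallest p in APP/PS1 against NTG are named, with Osmr, Il6st, Stat3, Socs3, Nes, Slc22a17, Cd63, Timp2, Vdac1 and Dbi always, and the 5, 3 and 3 genes with profiles nearest to the member mean, Gfap and Serpina3n. Synm, Plec, S100b, Mmp2, Timp4, Mmp14, Cyp11a1, Efemp2, S100a11, Anxa2, Aqp4, Glul, Emp1, Il6ra, Iigp1, Fkbp5, Mcat, Syn1, Gm26668 and Serpina3c were named after their values were seen. Promoter windows are from RefSeq (GRCm38.p6), and gene models from GENCODE vM21.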

Additional observations from a re-analysis of the deposited data

Results flagged for a closer look

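In 30 checks of a member within a group, 2 mice stood apart from the rest of their group by a gap too wide for its range, and in 15 checks of marker sums 2 did; chance gives about 1 in 20. Gfap was 508 CPM in NTG mouse 7 and at most 348 CPM in the other NTG mice. Lcn2 was 1.93 CPM in CP2-treated mouse 21 and at most 0.784 CPM in the other CP2-treated mice. The neutrophil marker sum was 9.60 CPM in NTG mouse 10, the NTG animal with the highest Lcn2 level, and at most 2.45 CPM in the other NTG mice. The striatal marker sum was 2854 CPM in APP/PS1 mouse 16, the animal with the lowest level of all 10 members in its group, and at most 359 CPM in the other APP/PS1 mice. The marker sums checked were those of resting astrocytes, microglia, microglia around plaques, neutrophils and striatum. Choroid plexus sums were not checked in this way. The causes were not tested.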

How the results depend on the processing

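No member changed direction under any of the alternatives run, and the counts of called members stayed within 1.5 times of the reported ones. In APP/PS1 against NTG mice, 7 members were called higher; leaving out 1 mouse gave between 5, with NTG mouse 9 omitted, and 9, with APP/PS1 mouse 16 omitted. The 9 include Lcn2 and Timp1, which passed the filter there only through the APP/PS1 group; of the 8 members tested with all mice, 7 were called. A fit with neither the filter nor mouse 16, chosen after seeing the data, also called 9. In CP2-treated APP/PS1 against NTG mice, 6 were called, with 5 to 7 when 1 mouse was left out. No member was called in CP2-treated against vehicle APP/PS1 mice under any alternative. Of single members, only the calls on Cd44, Tspo, Fbln5 and Lcn2 moved across the threshold, as given above; Timp1 was called in APP/PS1 against NTG mice in each of the 4 fits that tested it. Counts over all genes moved more. In APP/PS1 against NTG mice, 712 genes were called higher, with 1098 by DESeq2 and 1108 by limma. Scaling to resting astrocyte markers gave 6417, leaving out APP/PS1 mouse 16 gave 1094 and leaving out NTG mouse 9 gave 469. In CP2-treated against vehicle mice DESeq2 called 8 higher and 15 lower in place of 0 and 1. No paired analysis was possible because the groups share no mouse number.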

Other observations

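Markers of microglia around plaques were called higher in APP/PS1 than in NTG mice for 8 of 10 genes, led by Cd68, a lysosomal protein of phagocytes (log2 fold change 2.28, SE 0.13, adjusted p = 4.99e-05 by edgeR), Cst7, an inhibitor of cysteine proteases (5.62, SE 0.36), Trem2, a lipid-sensing receptor (2.46, SE 0.18), and Tyrobp, its signalling adaptor (2.12, SE 0.16). Of these 10 genes 0 were called in CP2-treated against vehicle APP/PS1 mice by edgeR. At an unadjusted p under 0.05, 1 was lower, Lpl (log2 fold change -0.18, SE 0.08), as were 3.66% of all genes. Without mouse 16 the counts were 0 and 3, beside 5.29% of all genes lower at an unadjusted p under 0.05.

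Markers of mural cells, the pericytes and smooth muscle of vessels, were called higher in CP2-treated APP/PS1 than in NTG mice for 5 of 8 genes: Rgs5 (log2 fold change 0.81, SE 0.09, adjusted p = 0.000495 by edgeR), Abcc9 (0.77, SE 0.17), Myh11 (0.72, SE 0.18), Tagln (0.69, SE 0.17) and Pdgfrb (0.24, SE 0.06). In APP/PS1 against NTG mice edgeR called 0 of the 8, with 6 at an unadjusted p under 0.05 (2 called without mouse 16, Tagln and Vtn), and in CP2-treated against vehicle APP/PS1 mice, which is the direct comparison, 0 were called and 0 had an unadjusted p under 0.05. These genes were named after their values were seen.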
